A study of Homo sapiens with 45 samples.

Results

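The acute transcriptional response of Jurkat cells to BRM014 was taken from 6 of the study's 45 RNA-sequencing libraries: 3 from cells given 1 uM BRM014 for 6 h and 3 from cells given 0.01% DMSO, the solvent, for 6 h. The members were chosen by these labels alone. Jurkat is an established human line from a T cell acute lymphoblastic leukaemia (T-ALL), and BRM014 is an inhibitor of the ATPase activity of SMARCA4 and SMARCA2. The labels number the libraries as biological replicates but do not say whether these came from separate cultures, so the p-values below measure the spread between these libraries. Other groups, of 3 libraries each, served as side comparisons: Jurkat with 1 uM BRM014 or 0.01% DMSO for 8 days, Jurkat transduced with guides against SMARCA4 and SMARCA2 (gSMARCA4_A2) or with the control guide gAAVS1 for 10 days, and the T-ALL lines CCRF-CEM, KOPT-K1 and TALL-1 with BRM014 or DMSO for 6 h at the same doses.

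SMARCA4 (BRG1) and SMARCA2 (BRM) are the alternative ATPases of the SWI/SNF (BAF) chromatin remodelling complexes, which slide or evict nucleosomes and keep enhancers and many promoters open to transcription factors. ARID1A and ARID1B are the alternative large subunits of the canonical form (cBAF), while ARID2 marks PBAF and BICRA or BICRAL marks the non-canonical form (ncBAF). In T-ALL the enhancers of T cell and leukaemia genes are bound by TAL1, GATA3, RUNX1, MYB, ETS factors and NOTCH1. BRM014 blocks the activity of the ATPase proteins, and the transcripts of both were present. SMARCA4 had 114, 108 and 108 TPM with BRM014, against 103, 86.8 and 105 TPM with DMSO, and SMARCA2 had 19.9, 24.5 and 20.5 TPM with BRM014, against 17.4, 20.5 and 18.5 TPM with DMSO. Both passed the test with small positive differences (0.16 and 0.19 on the log2 scale). Neither call held throughout. In a fit of these 6 libraries alone the adjusted p was 0.14 for SMARCA4 and 0.15 for SMARCA2, after median-ratio rescaling it was 0.11 and 0.063, and without both replicate 2 libraries 0.22 and 0.082. SMARCA4 also lost its call in limma-voom (0.084), and SMARCA2 with no filter on low values (0.067). Among single omissions, SMARCA4 lost it without BRM014 replicate 1 (log2 0.14, adjusted p = 0.095) or DMSO replicate 2 (log2 0.08, adjusted p = 0.24). SMARCA2 lost it without BRM014 replicate 2 (log2 0.10, adjusted p = 0.27), DMSO replicate 1 (log2 0.14, adjusted p = 0.18) or DMSO replicate 3 (log2 0.18, adjusted p = 0.09).

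The BRM014 libraries held 31448910 to 35549532 reads assigned to genes, and the DMSO libraries 34616665 to 36869147. Mitochondrial genes took 20.8% to 21.8% of the TPM (reads scaled by gene length and depth) with BRM014 and 20.0% to 22.0% with DMSO. Replicate 2 stood apart in both groups: chi-square over degrees of freedom for the reads of 2 libraries was 11.5 to 13.9 in pairs that held it, against 3.65 (BRM014) and 3.77 (DMSO) between replicates 1 and 3. The cells expressed T cell markers, whose summed level was 1442 to 1488 TPM with BRM014 and 1848 to 1955 TPM with DMSO, with 7 of 8 lower. Markers of other cell types were scarce: 3 of 10 B cell markers passed the filter on low values and MS4A1 was listed at 0, 2 of 14 myeloid markers passed and S100A8 and S100A9 were listed at 0, and 2 of 10 natural killer cell markers passed and NCR1 was listed at 0. Of 14 erythroid and megakaryocyte markers 5 passed and 6, HBB among them, were listed at 0. Of 12 epithelial and fibroblast markers 4 passed, 3 of these were lower (COL1A1, KRT18 and the abundant VIM, which T cells also express), and EPCAM, KRT19 and COL3A1 were listed at 0. That list summed to 387 to 412 TPM with BRM014 and 525 to 543 TPM with DMSO, and its part in the results below was not tested. In bulk RNA, fewer cells of a kind and less RNA per cell cannot be told apart.

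Promoters are shown so that the CG content and letters counted below can be seen in examples. They are those of the 3 largest increases and the 3 largest decreases among named protein-coding genes whose promoters were used here. Each runs 5′ to 3′ on the gene's strand, from 250 bases before to 50 bases after the start, on GRCh38.p14, and capitals mark CG dinucleotides. The genes that were higher with BRM014 were SYT11 (chr1:155859317-155859616, plus strand, 22 CG), CCDC121 (chr2:27628963-27629262, minus strand, 18 CG) and CCDC96 (chr4:7042952-7043251, minus strand, 37 CG):
SYT11: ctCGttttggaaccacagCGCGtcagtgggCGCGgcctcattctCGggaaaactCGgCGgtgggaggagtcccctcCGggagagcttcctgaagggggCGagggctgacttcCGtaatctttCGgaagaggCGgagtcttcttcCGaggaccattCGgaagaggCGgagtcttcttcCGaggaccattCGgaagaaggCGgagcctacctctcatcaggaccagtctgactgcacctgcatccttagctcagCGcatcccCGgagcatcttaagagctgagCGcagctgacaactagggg
CCDC121: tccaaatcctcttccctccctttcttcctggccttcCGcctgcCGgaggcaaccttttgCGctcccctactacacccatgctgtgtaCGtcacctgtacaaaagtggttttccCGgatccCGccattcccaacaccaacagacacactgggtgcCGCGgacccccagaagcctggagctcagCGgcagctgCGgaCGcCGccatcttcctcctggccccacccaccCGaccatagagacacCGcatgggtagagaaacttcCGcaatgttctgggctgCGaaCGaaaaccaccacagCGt
CCDC96: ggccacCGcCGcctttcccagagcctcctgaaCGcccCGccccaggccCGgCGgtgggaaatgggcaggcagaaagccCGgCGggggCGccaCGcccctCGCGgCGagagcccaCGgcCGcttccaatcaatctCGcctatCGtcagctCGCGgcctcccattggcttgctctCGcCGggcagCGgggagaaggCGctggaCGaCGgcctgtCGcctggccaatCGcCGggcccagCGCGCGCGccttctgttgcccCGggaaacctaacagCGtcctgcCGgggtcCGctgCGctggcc

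The genes that were lower were CD48 (chr1:160711773-160712072, minus strand, 5 CG), SASH3 (chrX:129779699-129779998, plus strand, 9 CG) and KCNA6 (chr12:4809084-4809383, plus strand, 23 CG):
CD48: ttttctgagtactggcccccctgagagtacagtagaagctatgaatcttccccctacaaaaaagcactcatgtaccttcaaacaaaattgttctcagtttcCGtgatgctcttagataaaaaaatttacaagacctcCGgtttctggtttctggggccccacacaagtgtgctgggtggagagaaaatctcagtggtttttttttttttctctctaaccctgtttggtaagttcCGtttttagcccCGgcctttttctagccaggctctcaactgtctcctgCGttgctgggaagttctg
SASH3: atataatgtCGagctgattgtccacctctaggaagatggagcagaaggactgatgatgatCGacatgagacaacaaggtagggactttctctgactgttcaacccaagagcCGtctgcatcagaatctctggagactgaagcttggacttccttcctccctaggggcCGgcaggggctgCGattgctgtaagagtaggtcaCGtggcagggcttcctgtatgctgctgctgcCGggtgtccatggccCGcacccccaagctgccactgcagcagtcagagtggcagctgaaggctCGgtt
KCNA6: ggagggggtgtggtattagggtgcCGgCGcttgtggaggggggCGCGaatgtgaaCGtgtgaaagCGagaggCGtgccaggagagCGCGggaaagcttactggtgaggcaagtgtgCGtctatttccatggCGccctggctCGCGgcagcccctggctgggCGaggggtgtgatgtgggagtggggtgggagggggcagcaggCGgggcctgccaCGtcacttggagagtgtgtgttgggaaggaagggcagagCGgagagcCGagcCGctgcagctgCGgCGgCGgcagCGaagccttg

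CD48 and SASH3, both leukocyte genes, had promoters with few CG dinucleotides (observed over expected ratio 0.337 and 0.390), whereas the 3 promoters of genes that were higher had ratios of 0.727 to 0.925. KCNA6 did not follow, with 0.810. Over all tested protein-coding genes with a RefSeq promoter (10496 of 12803), the ratio was under 0.6 in 14.4% of the promoters of genes called higher, 22.1% of those called lower and 18.9% of all. Among promoters of genes not called it was under 0.6 in 20.3%, close to the share of genes called lower. Motifs were searched as letters on both strands. The palindromic site of the factor NRF1 was in 3.87% of promoters of genes called higher, 1.11% of those called lower and 2.48% of all. The site of YY1 was in 3.28%, 0.908% and 2.02% of the same sets, and the ETS letters CCGGAAG were in 20.6%, 15.7% and 19.2%. The order was the other way for the AP-1 letters TGANTCA (3.31%, 5.08% and 4.35%) and for TATAAA (4.46%, 6.28% and 5.68%). Promoters of genes not called held the NRF1 site in 2.23%, the YY1 site in 1.73%, the ETS letters in 20.0%, the AP-1 letters in 4.69% and TATAAA in 6.20%. Their ETS share was close to that of genes called higher, and their TATAAA share close to that of genes called lower. The RUNX letters TGTGGT differed little (8.91%, 9.50% and 9.48%), as did the E-box letters CANNTG (59.8%, 58.8% and 60.7%). None of these strings contains another, and the shares are descriptions of letters in a window. Genes past 2-fold could not be described this way because under 80% of them (75% of those higher and 72.9% of those lower) had a promoter entry.

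The response was broad and mostly small. Of 17936 genes tested with limma on log2(TPM + 1), 8509 (47.4%) passed an adjusted p of 0.05, 4801 higher (26.8%) and 3708 lower (20.7%). The median change of genes called higher was 0.31 on the log2 scale (quartiles 0.22 and 0.46), that of genes called lower was -0.38 (quartiles -0.59 and -0.25), and that of all tested genes was 0.04. Increases were more numerous, while large changes were mostly decreases: 94 genes rose at least 2-fold (0.524%) and 276 fell at least 2-fold (1.54%). After median-ratio rescaling, which moved the median of all genes to 0.003, 4155 genes were higher and 4318 lower. In limma-voom on the recovered reads 4117 were higher and 4256 lower, so the excess of increases depended on the scaling. Changes under 0.25 made up 1624 of the increases and 935 of the decreases, and changes of 2 or more on the log2 scale made up 3 of the increases and 21 of the decreases. All 3 BRM014 libraries lay above all 3 DMSO libraries for 5502 genes (30.7%) and below them for 4032 (22.5%). An exact permutation test of 3 against 3 libraries cannot go below p = 0.1, so calls rest on the fit across genes. In a fit of the 2 compared groups alone, without the spread of the other Jurkat groups, 4008 genes were higher and 3122 lower. When both replicate 2 libraries were left out, an alternative chosen after the data were seen, 3666 genes were higher and 3318 lower, and 92 and 283 passed 2-fold.

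**Figure D1:**
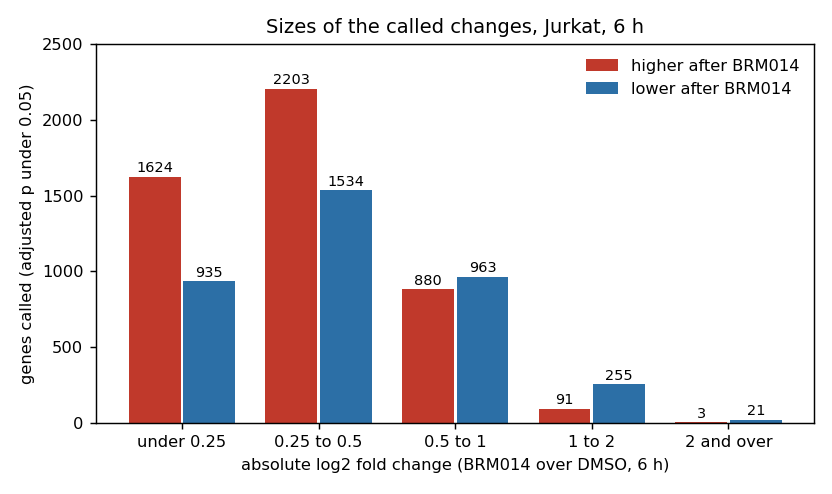
Number of genes called higher and lower after 6 h of BRM014 by size of the log2 fold change, BRM014 over DMSO (limma, adjusted p under 0.05, 17936 genes tested). Increases outnumber decreases below 0.5 on the log2 scale, and decreases outnumber increases above 0.5, with 276 decreases and 94 increases of at least 2-fold.

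Both protein-coding and long non-coding genes took part. Of 12803 protein-coding genes, 3859 rose (30.1%) and 3027 fell (23.6%). Most list counts below stand beside the shares of all genes, which are lower than these in both directions. Of 2369 long non-coding RNA genes, 530 rose (22.4%) and 359 fell (15.2%). Genes at 5 to 20 TPM (30.6% higher and 24.7% lower) and at 20 to 100 TPM (32.4% higher and 22.9% lower) were called at like rates, whereas of 190 genes at 500 TPM or more 15 rose and 30 fell, none of them by 2-fold. Summed over the protein-coding genes, those called higher gained 29384.6 TPM and the total of those called lower fell by 33771.4 TPM in the mean. The 188 protein-coding genes past 2-fold in that direction fell by 4621.5 TPM in total, and the 56 that rose at least 2-fold gained 879.7 TPM. The most abundant genes moved by small folds: ACTB, a cytoplasmic actin, had 5219, 5444 and 5495 TPM with BRM014, against 6513, 6450.2 and 6942 TPM with DMSO (-0.30 on the log2 scale). All 13 mitochondrially encoded mRNAs stayed between -0.07 and 0.08 on the log2 scale, and 0 passed the limma test, with 0 also at an unadjusted p under 0.05 and in limma-voom on the recovered reads.

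The apparatus of T cell receptor (TCR) signalling fell as a group. Of 29 kinases and adaptors that act next to the receptor, 24 fell and 3 rose, with a median log2 fold change of -0.99, against 20.7% lower and a median of 0.04 over all genes. SLA (chromosome 8, 133036728 to 133102602, hg38), an adaptor that promotes the turnover of the receptor, had 50.9, 82.4 and 46.1 TPM with BRM014, against 343, 490.0 and 358 TPM with DMSO. SASH3 (chromosome X, 129779949 to 129795201), a lymphocyte scaffold protein whose promoter is printed above, had 22.4, 20.7 and 20.9 TPM with BRM014, against 138, 119 and 137 TPM with DMSO. The groups did not overlap for either gene, and replicate 2 was the highest library of both groups for SLA (log2 fold change -2.74, SE 0.18, adjusted p = 1.6e-10) and the lowest of both for SASH3 (log2 fold change -2.57, SE 0.07, adjusted p = 8.7e-17). LAX1, a transmembrane adaptor, had 0.923, 1.23 and 0.956 TPM with BRM014, against 8.71, 13.6 and 8.59 TPM with DMSO. GRAP2 (GADS), which joins the scaffold LAT to SLP-76, had 6.83, 9.14 and 7.36 TPM with BRM014, against 35.5, 53.4 and 42.5 TPM with DMSO. Each DMSO library was above each BRM014 library for both genes, with log2 fold changes of -2.45 (SE 0.13) and -2.34 (SE 0.14).

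The core kinases, named here after their values were seen because they carry the signal, fell by less. ZAP70, the kinase recruited to the receptor chains, had 32.0, 32.8 and 32.5 TPM with BRM014, against 70.6, 68.8 and 71.5 TPM with DMSO (log2 fold change -1.09, SE 0.06, adjusted p = 2.9e-12). LCK, the Src-family kinase that phosphorylates the receptor chains, had 168, 164 and 165 TPM with BRM014, against 254, 236 and 252 TPM with DMSO (log2 fold change -0.57, SE 0.06, adjusted p = 6.5e-08). All BRM014 libraries were lower than all DMSO libraries for both kinases, by less than for the adaptors above. LAT fell by 1.46 on the log2 scale, but a same-strand readthrough gene covers 99% of its exonic bases and a gene on the other strand 20%, so reads of these genes cannot be told apart. The 3 members that rose were PAG1 (0.67), an adaptor that recruits the inhibitory kinase CSK, PRKCQ (0.54), the protein kinase C isoform of the T cell synapse, and BCL10 (0.24), which links it to NF-kB.

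Enzymes that restrain the receptor fell together with those that drive it. Of 12 phosphatases and ubiquitin ligases of this kind, 7 fell (58.3%, beside 20.7% of all genes) and 2 rose (16.7%, beside 26.8%), with a median of -0.47. PTPN6 (SHP-1; chromosome 12, 6946577 to 6961316), a phosphatase that dampens TCR signals, had 20.4, 28.5 and 17.9 TPM with BRM014, against 104, 138 and 95.7 TPM with DMSO. Its groups were far apart, with the highest BRM014 library at 28.5 TPM and the lowest DMSO library at 95.7 TPM (log2 fold change -2.30, SE 0.14, adjusted p = 6.7e-11). PTPRCAP, a partner of the phosphatase CD45, fell by 1.66, PTPN22 fell by 1.26 and PTPN7 fell by 1.01 on the log2 scale. The ubiquitin ligase CBLB rose (0.65, SE 0.09), and so did PTPN2 (0.25). Of 15 feedback genes of the MAP kinase pathway 5 fell (33.3%, beside 20.7% of all genes) and 3 rose (20%, beside 26.8%). DUSP2, a nuclear phosphatase of MAP kinases, was at -1.21 and TRIB1 at 2.51. TRIB1 (chromosome 8, 125430358 to 125438403), a pseudokinase that brings substrates to the ubiquitin ligase COP1, was close to absent with DMSO. It had 6.15, 9.32 and 5.97 TPM with BRM014, against 0.323, 0.528 and 0.376 TPM with DMSO (log2 fold change 2.51, SE 0.12, adjusted p = 6.1e-13). Of 19 immediate early and AP-1 factors 5 fell and 2 rose, shares of 26.3% and 10.5%, KLF2, a regulator of T cell migration, showing the largest decrease (-1.13).

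**Figure D2:**
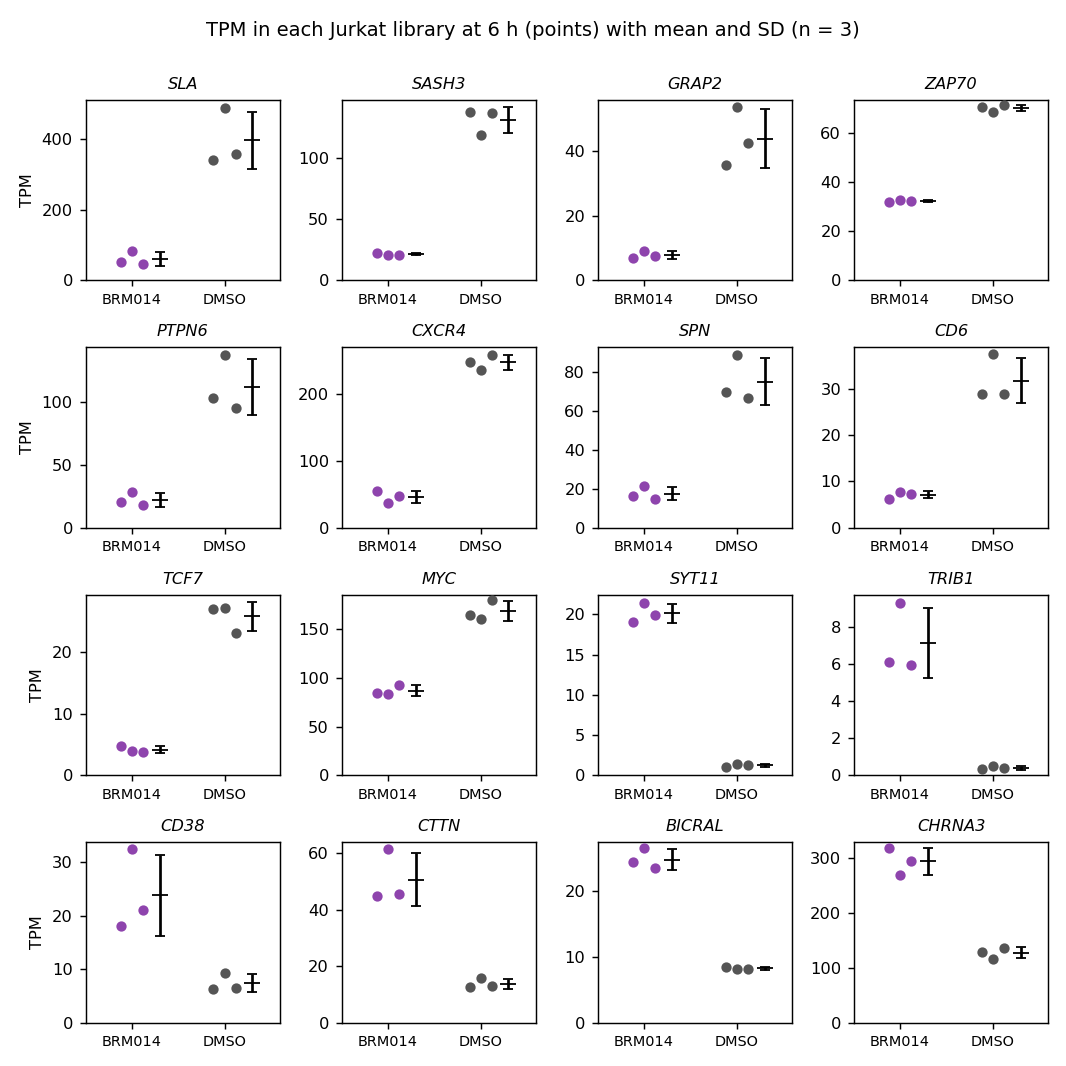
Level of 16 genes in each library (TPM, linear axes from 0), BRM014 6 h left of DMSO 6 h in each panel; points are libraries, and the bars beside them are the mean and SD (n = 3 each). In every panel the BRM014 points lie wholly below (as for SLA and SASH3) or wholly above (as for SYT11 and TRIB1) the DMSO points.

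At the cell surface, 14 of 16 receptor and co-receptor genes fell (87.5%, beside 20.7% of all genes) and 1 rose (6.25%, beside 26.8%), with a median of -0.42. SPN (CD43, a sialomucin of leukocytes) had 16.3, 21.4 and 14.9 TPM with BRM014, against 70.0, 89.0 and 66.5 TPM with DMSO. CD6, a co-receptor that binds ALCAM, had 6.23, 7.73 and 7.35 TPM with BRM014, against 28.9, 37.3 and 28.8 TPM with DMSO. Neither gene's groups overlapped, and replicate 2 was the highest library in each group for both (log2 fold change -2.04, SE 0.10, adjusted p = 4.8e-13 and, for CD6, -2.01, SE 0.10). CD5, an inhibitory co-receptor, fell by 1.03, and CD2, an adhesion receptor, fell by 1.13 on the log2 scale. CD38 (chromosome 4, 15778328 to 15853232), an ectoenzyme that consumes NAD, was the single member that rose, with 18.1, 32.4 and 21.1 TPM with BRM014, against 6.27, 9.30 and 6.51 TPM with DMSO (log2 fold change 1.55, SE 0.22, adjusted p = 6.5e-06).

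Homing and adhesion genes also fell: 16 of 22 were lower (72.7%, beside 20.7% of all genes) and 0 higher in the limma fit (median -0.35). The higher count was 1 at an unadjusted p under 0.05, 0 in limma-voom, and 1 without BRM014 replicate 1 or without DMSO replicate 2. CXCR4 (chromosome 2, 136114349 to 136118149), the receptor for CXCL12 that holds T-ALL cells in bone marrow, had 54.5, 37.2 and 47.1 TPM with BRM014, against 248, 236 and 258 TPM with DMSO. ITGAL, the alpha chain of the integrin LFA-1, had 3.05, 2.33 and 2.42 TPM with BRM014, against 17.6, 15.3 and 15.6 TPM with DMSO. The groups did not overlap, at -2.41 (SE 0.11) for CXCR4 and -2.26 (SE 0.12) for ITGAL. CD48, a ligand of CD2 and CD244 whose promoter is printed above, fell by 2.63, and 22% of its exonic bases are shared with a gene on the other strand. SELPLG, the ligand of P-selectin, fell by 1.16. All 6 tested genes of the GIMAP cluster, GTPases of lymphocyte survival, fell by 1.14 to 2.49 on the log2 scale (median -1.37). GIMAP2 was the largest, with 8.00, 10.1 and 9.71 TPM with BRM014, against 54.6, 62.4 and 53.3 TPM with DMSO. Among 14 cytokine receptors 7 fell (50%, beside 20.7% of all genes) and 2 rose (14.3%, beside 26.8%). IL7R, which supports T cell survival, had 4.94, 4.71 and 4.48 TPM with BRM014, against 15.0, 12.1 and 11.4 TPM with DMSO (log2 fold change -1.27, SE 0.10, adjusted p = 7.3e-10), while IL6ST, the shared chain of the IL-6 family, rose (0.56). Downstream of these receptors the picture was mixed: 9 of 19 JAK, STAT and SOCS genes rose (47.4%) and 6 fell (31.6%). JAK3, the kinase that pairs with the common gamma chain, fell by 1.84 and STAT5A fell by 0.79. The feedback inhibitors did not move together: SOCS7 (0.69) and SOCS5 (0.51) rose, while SOCS1 was called lower. The SOCS1 call was lost without DMSO replicate 2.

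Calcium and potassium channels of lymphocytes fell in 12 of 23 cases (52.2%, beside 20.7% of all genes) and rose in 4 (17.4%, beside 26.8%), with a median of -0.34. ORAI1, the pore of the store-operated calcium channel, fell by 0.91 and its endoplasmic reticulum sensor STIM2 rose (0.57, SE 0.05). The potassium channels KCNK5 and KCNK6 fell by 1.30 and 0.96. KCNA6 showed the largest decrease of the list (-2.56), although all of its exonic bases (100%) lie in exons of GALNT8 on the same strand. Of 26 actin regulators of leukocytes 19 fell (73.1%, beside 20.7%) and 0 rose in the limma fit, with a median of -0.32. At an unadjusted p under 0.05 and in limma-voom 0 rose. The decreases were led by ARHGAP30 (-1.59), a GTPase-activating protein, and RAC2 (-1.10), the RAC GTPase of blood cells. Of 23 broadly expressed actin and focal adhesion genes, in contrast, 10 fell (43.5%, beside 20.7% of all genes) and 5 rose (21.7%, beside 26.8%). FLNA, an actin crosslinker, had 21.6, 22.0 and 21.3 TPM with BRM014, against 52.2, 48.5 and 52.0 TPM with DMSO. CTTN (cortactin; chromosome 11, 70398529 to 70436575), which stabilises branched actin, had 44.7, 61.5 and 45.8 TPM with BRM014, against 12.6, 15.9 and 12.9 TPM with DMSO. Neither gene's groups overlapped, and the changes had opposite signs (-1.20, SE 0.07, and 1.80, SE 0.11). ZYX and ACTN4 rose with CTTN (0.65 and 0.60).

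Transcription factors of the T lineage fell in 17 of 28 cases (60.7%, beside 20.7% of all genes) and rose in 4 (14.3%, beside 26.8%), with a median of -0.28. TCF7 (TCF-1; chromosome 5, 134108218 to 134148210), which opens the T cell programme, had 4.85, 3.90 and 3.801 TPM with BRM014, against 27.1, 27.2 and 23.2 TPM with DMSO. BCL11B, which commits progenitors to the T lineage, had 15.4, 17.3 and 15.8 TPM with BRM014, against 55.5, 51.8 and 59.6 TPM with DMSO. Both were lower in every BRM014 library (log2 fold change -2.38, SE 0.08, adjusted p = 3e-15, and for BCL11B -1.72, SE 0.06). IKZF2 (Helios) fell by 1.49. ID2, an inhibitor of E proteins, and ZBTB7B (ThPOK), the CD4-lineage factor, rose (0.59 and 0.44). Of 12 members and partners of the TAL1 complex 10 fell (83.3%) and 1 rose (8.33%), with a median of -0.53. TAL1 itself, the bHLH oncogene of this line, had 42.5, 55.4 and 47.0 TPM with BRM014, against 60.02, 71.5 and 63.0 TPM with DMSO (log2 fold change -0.42, SE 0.07, adjusted p = 6.9e-05). MYB, an activator of blood progenitor genes, had 143, 191 and 154 TPM with BRM014, against 254, 297 and 282 TPM with DMSO (log2 fold change -0.78, SE 0.09, adjusted p = 6.6e-07). In both cases the groups did not overlap, and in each group replicate 2 was the highest library. GATA3 fell by 0.73, LYL1 fell by 0.92, LMO1 fell by 0.70 and RUNX1 fell by 0.32, while TCF12, the E protein HEB, rose (0.29). ETS factors fell in 9 of 16 cases (56.25%, beside 20.7% of all genes) and rose in 3 (18.75%, beside 26.8%). The lowest were ETV6 (-0.86), ELF4 (-0.83), ETS2 (-0.71) and FLI1 (-0.70), and GABPA (0.43) was among those that rose.

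NOTCH receptors fell while parts of their processing enzymes rose. Of 20 genes for receptors, ligand modifiers and proteases 7 fell (35%, beside 20.7% of all genes) and 8 rose (40%, beside 26.8%). NOTCH3 had 10.6, 7.48 and 9.85 TPM with BRM014, against 35.2, 17.5 and 34.6 TPM with DMSO. NOTCH1, the receptor mutated most often in T-ALL, had 12.7, 16.2 and 13.7 TPM with BRM014, against 23.1, 26.3 and 25.5 TPM with DMSO. Replicate 2 was the lowest library of both groups for NOTCH3 (-1.49, SE 0.17) and the highest for NOTCH1 (-0.78, SE 0.09), and the groups did not overlap for either. FURIN, which cleaves the precursor, rose (0.62). NOTCH1 target genes fell in 6 of 13 cases (46.2%) and rose in 3 (23.1%). DTX1 and LZTFL1 fell by 1.24 and 1.09, HEY1 rose (0.75), and HES1 did not pass the test (-0.20, adjusted p = 0.16, and its groups overlapped). MYC (chromosome 8, 127735434 to 127742951), a driver of growth downstream of NOTCH1, had 84.6, 83.6 and 93.0 TPM with BRM014, against 164, 161 and 180.4 TPM with DMSO. The BRM014 libraries were all lower, and the groups did not overlap (log2 fold change -0.94, SE 0.07, adjusted p = 5.3e-10). Its partner MAX fell by 0.49 and MYCL rose (0.63).

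Genes of the remodelling complexes themselves moved little, with a clear exception. Of 16 ATPase and shared subunit genes 6 rose and 2 fell (37.5% and 12.5%, beside 26.8% and 20.7% of all genes). ARID1A had 105, 111 and 101 TPM with BRM014, against 82.6, 78.0 and 82.5 TPM with DMSO (log2 fold change 0.37, SE 0.05, adjusted p = 1e-06). ARID1B had 17.9, 19.6 and 17.4 TPM with BRM014, against 20.6, 20.2 and 20.2 TPM with DMSO (-0.15, SE 0.06, adjusted p = 0.038). The ARID1B groups differed by less than those of ARID1A, and leaving out any of the 6 libraries but BRM014 replicate 2 ended its call, at adjusted p values of 0.066 to 0.16. BICRAL (chromosome 6, 42746339 to 42868556), a subunit that marks ncBAF, had 24.3, 26.4 and 23.4 TPM with BRM014, against 8.44, 8.09 and 8.15 TPM with DMSO. Each BRM014 library was above each DMSO library by a wide gap (log2 fold change 1.47, SE 0.07, adjusted p = 6.1e-13), and its paralogue BICRA rose by less (0.30). ARID2 of PBAF fell by 0.38. Among 18 other nucleosome remodelling ATPases 6 fell (33.3%, beside 20.7% of all genes) and 4 rose (22.2%, beside 26.8%). CHD4, the ATPase of the NuRD complex, fell by 0.82, with 86% of its exonic bases shared with another gene on the same strand, and CHD2 rose (0.52). Of 31 Polycomb genes 10 rose (32.3%, beside 26.8% of all genes), or 6 without BRM014 replicate 2, and 6 fell (19.4%, beside 20.7%). These shares were near those of all genes, and the median was 0.03. The lowest was JARID2, a partner of Polycomb complex PRC2. It had 15.2, 19.6 and 15.4 TPM with BRM014, against 28.2, 40.0 and 31.4 TPM with DMSO (-0.94, SE 0.12).

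Genes for coactivators and Mediator leaned higher. Of 22 enhancer coactivators 17 rose and 1 fell (median 0.22, against 26.8% higher among all genes). Without BRM014 replicate 2, 9 of them were higher, without DMSO replicate 2, 11, and without both replicate 2 libraries 9. KAT2B (PCAF), an acetyltransferase, had 8.88, 9.63 and 8.13 TPM with BRM014, against 5.93, 5.81 and 4.42 TPM with DMSO (log2 fold change 0.64, SE 0.10, adjusted p = 3.2e-05). ASH2L, a subunit of the H3K4 methyltransferases, had 73.7, 82.6 and 73.6 TPM with BRM014, against 53.1, 58.5 and 56.7 TPM with DMSO (log2 fold change 0.44, SE 0.04, adjusted p = 1.8e-08). Both sets of BRM014 values lay above all DMSO values, and the changes were well under 2-fold. EP300 was the member that fell (-0.16), and its call was lost without BRM014 replicate 2 (adjusted p = 0.062), BRM014 replicate 3 (0.086) or DMSO replicate 1 (0.094). Of 32 Mediator subunits 16 rose (50%, beside 26.8% of all genes) and 4 fell (12.5%, beside 20.7%), with a median of 0.13. They ran from MED7 (0.50) to MED17 (-0.25), of whose exonic bases 42% are shared with another gene on the same strand. ELL2, a subunit of the super elongation complex, rose most among 33 pausing and elongation factors (0.94, SE 0.07).

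Cell cycle genes that changed at 6 h mostly rose. Of 32 replication and S phase genes 15 rose (46.9%, beside 26.8% of all genes) and 3 fell (9.38%, beside 20.7%), with a median of 0.09. RFC4, a clamp loader subunit, had 194, 196 and 200.3 TPM with BRM014, against 141, 142 and 138 TPM with DMSO (log2 fold change 0.49, SE 0.05, adjusted p = 2.7e-08). MCM4 of the replicative helicase had 248, 238 and 261 TPM with BRM014, against 205, 191 and 211 TPM with DMSO (log2 fold change 0.30, SE 0.06, adjusted p = 0.00029). The groups did not overlap for either gene, and the increases were well under 2-fold. Of 34 mitotic and G2/M genes 15 rose (44.1%) and 2 fell (5.88%), with a median of 0.13, but 9 were higher without BRM014 replicate 1 and 9 without DMSO replicate 2. NDC80 of the kinetochore rose (0.47, SE 0.06), as did CCNF (0.39, SE 0.05). Of 32 DNA repair genes 13 rose (40.6%) and 3 fell (9.38%). Of 19 G1 regulators 7 rose (36.8%, beside 26.8% of all genes and 30.1% of protein-coding genes) and 4 fell (21.1%, beside 20.7% and 23.6%). CDK6, the main G1 kinase of lymphoid cells, had 69.7, 73.3 and 72.0 TPM with BRM014, against 167, 191 and 155 TPM with DMSO (log2 fold change -1.24, SE 0.08, adjusted p = 1.3e-10). Its partner CCND3 had 214, 257 and 255 TPM with BRM014, against 344, 474 and 398 TPM with DMSO (log2 fold change -0.73, SE 0.15, adjusted p = 0.00049). Each was lower in all BRM014 libraries, while CDK2 (0.58) and CCNE2 (0.55), which act later in G1, rose. For CCNE2, 48% of the exonic bases are shared with genes on the other strand. RB1, the brake that CDK6 releases, fell by 0.66.

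Among lists of growth arrest and cell death, shares lay near those of all genes in some. Of 20 p53-linked genes 7 rose (35%) and 5 fell (25%), beside 26.8% and 20.7% of all genes. BTG2, an antiproliferative deadenylation factor, had 20.4, 18.2 and 20.7 TPM with BRM014, against 7.34, 6.99 and 7.77 TPM with DMSO (log2 fold change 1.31, SE 0.10, adjusted p = 5.6e-10). PMAIP1 (NOXA), a BH3-only protein, had 17.2, 22.2 and 19.1 TPM with BRM014, against 35.4, 43.2 and 37.3 TPM with DMSO (log2 fold change -0.95, SE 0.17, adjusted p = 9.8e-05). No BRM014 value overlapped a DMSO value for either gene. In the BCL2 family 7 of 15 fell (46.7%) and 1 rose (6.67%), with a median of -0.20 and 2 higher without BRM014 replicate 1. BID fell by 0.60 and the survival gene MCL1 fell by 0.46, whereas BCL2 did not pass the test (-0.28, adjusted p = 0.1). Of 15 NF-kB genes 4 rose (26.7%, beside 26.8% of all genes) and 5 fell (33.3%, beside 20.7%), or 3 without BRM014 replicate 1. BIRC3 (cIAP2), a ubiquitin ligase of the pathway, rose (1.16, SE 0.09) as did REL (0.64), while the inhibitor NFKBIA fell by 0.45. Interferon-stimulated genes fell in 10 of 22 cases (45.5%) and rose in 3 (13.6%), with a median of -0.20. IFI44 crossed to near absence, with 0.256, 0.441 and 0.305 TPM with BRM014, against 3.64, 5.09 and 4.01 TPM with DMSO (log2 fold change -1.97, SE 0.09, adjusted p = 1.7e-13). IRF1, a factor that drives such genes, fell by 0.72, and 15% of its exonic bases are shared with genes on the other strand. IFIT2 rose (0.52). MHC class I genes fell in 8 of 18 cases (44.4%, beside 20.7% of all genes) and rose in 2, or 1 without BRM014 replicate 2, BRM014 replicate 3, DMSO replicate 2 or DMSO replicate 3. Among those that fell were the immunoproteasome subunits PSMB8 (-0.52) and PSMB10 (-0.40) and their activator NLRC5 (-0.48).

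Among metabolic lists, most glycolytic genes fell, and sterol synthesis genes leaned higher in a count that rested on single libraries. Of 22 glycolytic genes 17 fell (77.3%, beside 20.7% of all genes) and 0 rose in the limma fit (median -0.24). At an unadjusted p under 0.05 and in limma-voom 0 were higher. ENO2, an enolase, had 61.2, 53.9 and 56.5 TPM with BRM014, against 105, 100.3 and 106 TPM with DMSO (log2 fold change -0.85, SE 0.05, adjusted p = 1.6e-11). HK1, a hexokinase, had 26.2, 23.7 and 24.0 TPM with BRM014, against 40.5, 37.8 and 41.7 TPM with DMSO (log2 fold change -0.68, SE 0.05, adjusted p = 5.3e-10). For both, all BRM014 libraries were below all DMSO libraries. The glucose transporter SLC2A3 fell by 0.73 and the lactate exporter SLC16A3 fell by 1.06. Of 20 nucleotide synthesis genes 8 fell (40%) and 3 rose (15%), but in a fit of these 6 libraries alone 5 fell and 1 rose. The higher count was also 1 with no filter on low values, after median-ratio rescaling and in limma-voom. It was 1 too without BRM014 replicate 1, BRM014 replicate 3 or DMSO replicate 2. IMPDH1 and GMPS catalyse successive steps to GMP. IMPDH1 averaged 29.7 ± 0.434 TPM with BRM014 and 55.7 ± 1.59 TPM with DMSO, and GMPS averaged 35.8 ± 1.22 TPM with BRM014 and 65.2 ± 0.746 TPM with DMSO (SD, n = 3 each). Both fell, by 0.88 and 0.85 on the log2 scale. Ribosome biogenesis genes fell in 12 of 30 cases (40%, beside 20.7% of all genes) and rose in 1, or 2 without BRM014 replicate 2 or DMSO replicate 3. Their median was -0.11, with NOLC1, a nucleolar chaperone, at -0.55.

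Of 26 genes of cholesterol synthesis and uptake 14 rose and 0 fell in the limma fit, with 0 lower at an unadjusted p under 0.05 and in limma-voom. Their median (0.35) was the highest of the gene lists named here. MVK, mevalonate kinase, had 37.5, 43.4 and 33.4 TPM with BRM014, against 19.3, 21.0 and 17.8 TPM with DMSO. SC5D, a late desaturase of the pathway, had 55.0, 79.4 and 57.2 TPM with BRM014, against 30.4, 38.3 and 28.6 TPM with DMSO. The groups did not overlap, and replicate 2 was the highest library in all 4 sets of values (log2 fold change 0.94, SE 0.12, adjusted p = 1.1e-06 and, for SC5D, 0.95, SE 0.15, adjusted p = 2.1e-05). SQLE, a rate-limiting epoxidase, gained among the most TPM of all genes and had 338, 403 and 318 TPM with BRM014, against 233, 276 and 202 TPM with DMSO (0.58, SE 0.11). This count leaned on single libraries: 5 were higher without BRM014 replicate 2, 9 without DMSO replicate 1, 7 without DMSO replicate 3, 9 without both replicate 2 libraries and 7 in a fit of these 6 libraries alone. The lowest of these counts is a share under the 26.8% of all genes called higher. MVD, for example, rose (0.76, adjusted p = 0.0089) but had 0.52 and an adjusted p of 0.074 without BRM014 replicate 2. The lysosome was less dependent on single libraries, with 15 of 25 genes higher (60%, beside 26.8% of all genes) and 3 lower (12%, beside 20.7%), and a median of 0.21. ATP6V0A1, a subunit of the proton pump, had 31.3, 30.9 and 30.4 TPM with BRM014, against 15.1, 14.8 and 15.1 TPM with DMSO (log2 fold change 0.99, SE 0.05, adjusted p = 1.5e-12), and LIPA, the acid lipase that frees cholesterol, had 81.7, 97.0 and 77.1 TPM with BRM014, against 55.9, 67.3 and 53.3 TPM with DMSO. All BRM014 libraries exceeded all DMSO libraries for both. In the unfolded protein response 7 of 20 genes fell (35%, beside 20.7% of all genes) and 1 rose, or 2 without BRM014 replicate 3. Among those that fell were XBP1 (-1.02), its transcription factor, and HSPA5 (-0.68), the chaperone BiP. Heat shock genes were split, with 3 of 19 higher (15.8%, beside 26.8% of all genes) and 3 lower (15.8%, beside 20.7%).

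**Figure D3:**
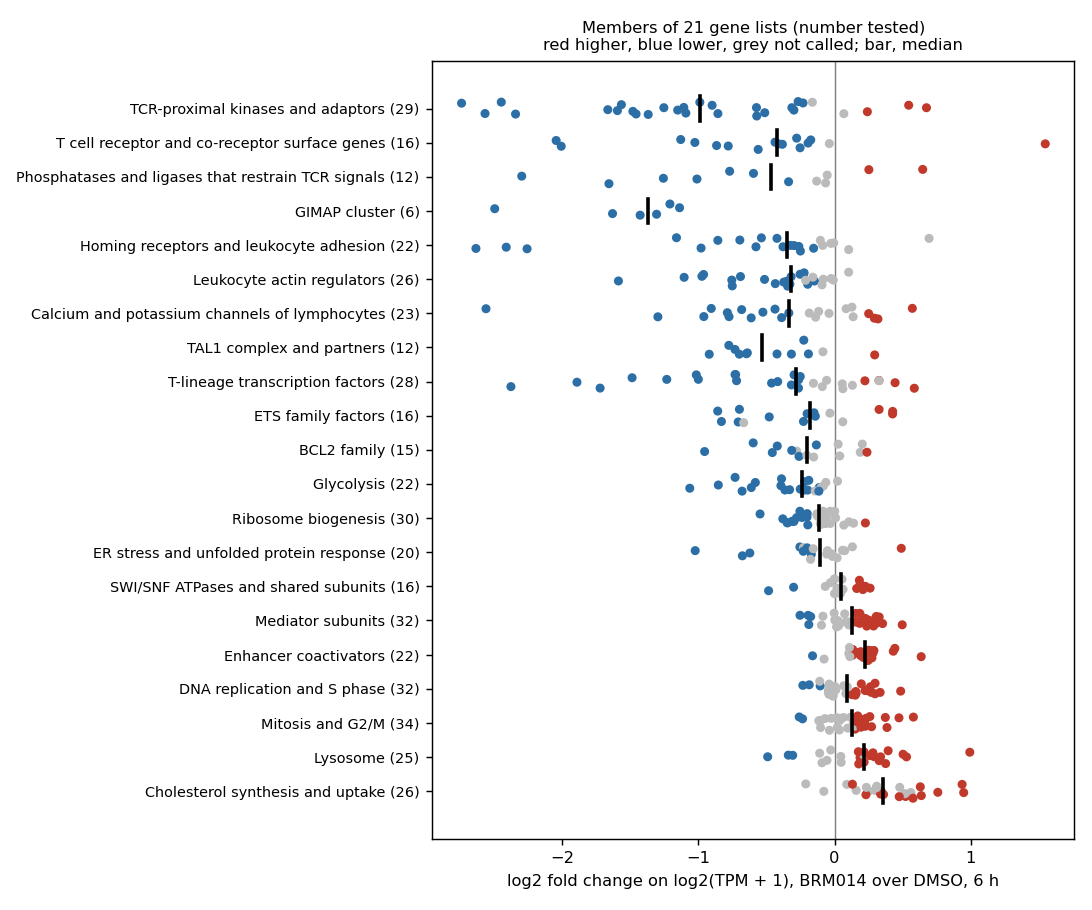
Log2 fold change after 6 h of BRM014 over DMSO of each tested member of 21 gene lists (points; red called higher, blue called lower, grey not called by limma; black bars mark medians). Medians run from -1.37 (GIMAP cluster) and -0.99 (TCR-proximal genes) to 0.22 (coactivators) and 0.35 (cholesterol genes), against 0.04 over all genes.

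Several genes with large increases belonged to none of the lists above. SYT11 (chromosome 1, 155859567 to 155885199), a synaptotagmin of vesicle traffic, had 19.1, 21.4 and 19.9 TPM with BRM014, against 1.06, 1.42 and 1.27 TPM with DMSO. CHGB, a granin of secretory granules, had 9.50, 13.2 and 9.33 TPM with BRM014, against 2.61, 3.76 and 2.49 TPM with DMSO. SYP, a synaptic vesicle protein, averaged 22.2 ± 0.716 TPM with BRM014 and 8.46 ± 0.456 TPM with DMSO (SD, n = 3 each). All 3 were higher in every BRM014 library, SYT11 by the largest change on log2(TPM + 1) of the named protein-coding genes (log2 fold change 3.23, SE 0.08, adjusted p = 3.5e-17), CHGB by 1.56 (SE 0.13) and SYP by 1.29 (SE 0.07). That scale understates changes of low genes, TRIB1 among them, so the ranking depends on it. CHRNA3 (chromosome 15, 78593052 to 78620996), a nicotinic receptor subunit, was already high with DMSO and was among the genes that gained most in level. It had 318, 269 and 293 TPM with BRM014, against 128, 117 and 137 TPM with DMSO (log2 fold change 1.20, SE 0.17, adjusted p = 5.9e-06), and its groups did not overlap. A BRM014 mean of at least 2 TPM stood against a DMSO mean under 0.5 TPM for 8 genes, of which TRIB1, DNAI1 and PDGFRL code for proteins, and the converse held for 11 genes, of which IFI44, PLCH1 and CCDC69 do. The largest decrease on log2(TPM + 1) among named protein-coding genes was that of PLA2G3, a secreted phospholipase, with 0.808, 1.34 and 0.706 TPM with BRM014, against 11.6, 23.0 and 11.8 TPM with DMSO (log2 fold change -3.02, SE 0.31, adjusted p = 9.7e-08).

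Among gene families, transcripts from divergent promoters leaned higher, and zinc finger genes fell less often than protein-coding genes at large. Of 383 ZNF genes 129 rose (33.7%) and 57 fell (14.9%), beside 30.1% and 23.6% of protein-coding genes, with a median of 0.08. ZNF341, an activator of STAT3, had 17.0, 19.1 and 17.2 TPM with BRM014, against 5.47, 5.30 and 5.83 TPM with DMSO (log2 fold change 1.52, SE 0.06, adjusted p = 2.4e-14). ZNF25 rose (1.39) and ZNF302 fell by 0.90. Of 77 divergent transcripts, non-coding RNAs read away from the promoter of a coding gene, 31 rose (40.3%) and 6 fell (7.79%), with a median of 0.17. Among all long non-coding RNA genes 22.4% rose and 15.2% fell. OSER1-DT was at 1.16. With a filter of 5 TPM, 15 divergent transcripts were higher, but that filter left 13272 of 17936 genes to test, so the 2 counts have unlike bases. Of 604 antisense RNA genes 155 rose (25.7%, beside 26.8% of all genes) and 76 fell (12.6%, beside 20.7%). This library kit does not record strand, so reads of an antisense gene and its partner cannot be told apart. Of 272 LINC genes 52 rose (19.1%, beside 26.8% of all genes) and 54 fell (19.9%, beside 20.7%). RAB GTPases rose in 20 of 49 cases (40.8%, beside 30.1% of protein-coding genes) and fell in 9 (18.4%, beside 23.6%). Cytosolic ribosomal protein genes hardly moved, with 6 of 82 higher and 1 lower. That direction turned with scaling, to 1 higher and 4 lower after median-ratio rescaling and in limma-voom on the recovered reads. Genes that fell at least 2-fold lay near each other more often than the genes at large lay near them: 26 of 187 (13.9%) had another within 100 kb, among them 6 GIMAP genes, CD5 and CD6, and CD48 and CD84, against 596 of 12714 (4.69%) tested protein-coding genes. None of 55 that rose at least 2-fold had such a neighbour, but at 1.42% among all tested protein-coding genes so few genes cannot show a difference. FPGT and the readthrough FPGT-TNNI3K, which both rose (1.37 and 1.30), were not counted as neighbours.

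After 8 days of BRM014, with its own DMSO libraries, 6612 genes were higher (36.9%) and 4127 lower (23%), and with gSMARCA4_A2 against gAAVS1 7337 were higher (40.9%) and 3793 lower (21.1%). The 6 h effect was tested against each in the same fit. It was higher than the 8 d effect for 3323 genes (18.5%) and lower for 4606 (25.7%), and higher than the gSMARCA4_A2 effect for 2766 (15.4%) and lower for 5147 (28.7%). Across genes, which are not independent replicates, the 6 h effect had a Pearson r of 0.40 with the 8 d effect and 0.41 with the gSMARCA4_A2 effect (Spearman 0.34 and 0.38). Of the 94 genes that rose at least 2-fold at 6 h, 78 were also called higher at 8 d and 1 lower, and 75 were higher and 3 lower with the guides. Of the 276 that fell at least 2-fold, 183 were lower and 26 higher at 8 d, and 180 were lower and 22 higher with the guides. The difference was itself called for many of them: 149 of the 276 fell more at 6 h than at 8 d and 42 fell less. These genes were chosen on their 6 h change, so this count is a description.

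Cell cycle and sterol genes had different counts at the later times. Of 32 S phase genes, 15 were higher and 3 lower at 6 h, against 2 higher and 25 lower at 8 d and 30 lower with gSMARCA4_A2. The 6 h effect was called higher than the 8 d effect for 26 and lower for 2, against 18.5% and 25.7% of all genes. Of 34 mitotic genes 24 were lower at 8 d and 32 with the guides, and the 6 h effect was higher than the 8 d effect for 28. RFC4 had log2 fold changes of 0.49 at 6 h, -0.41 at 8 d and -0.38 with the guides. For the cholesterol list the 6 h count of 14 higher stood against 2 higher and 23 lower at 8 d and 2 and 21 with the guides, and the difference from 8 d was called higher for 24 of 26. MVK had 0.94 at 6 h, -0.87 at 8 d and -0.61 with the guides.

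The leukaemia factors differed in the other direction. TAL1 had a log2 fold change of -0.42 (SE 0.07) at 6 h, 1.26 (SE 0.07) at 8 d and 1.28 (SE 0.07) with the guides, and the difference between 6 h and 8 d was -1.68 (SE 0.11, adjusted p = 8e-11). GATA3 behaved alike in sign, with -0.73, 0.32 and 1.05. Of 12 genes of the TAL1 list 9 had a lower effect at 6 h than at 8 d and 1 a higher. MYC, in contrast, had -0.94, -0.93 and -0.94, with a difference between 6 h and 8 d of -0.01 (SE 0.10, adjusted p = 0.93). Leukocyte actin regulators, lower for 19 of 26 at 6 h, were higher for 16 and lower for 6 at 8 d, and the difference was lower at 6 h for 19. The TCR-proximal list counted 10 higher and 16 lower at 8 d, and 17 of 29 had a lower effect at 6 h than at 8 d. SLA, the largest decrease of that list at 6 h, did not pass the test at 8 d (0.36, adjusted p = 0.088; difference -3.09). Other lists leaned one way in all 3 comparisons, as counts that need not be of the same genes. Of 22 glycolytic genes 17 were lower at 6 h, 16 lower and 1 higher at 8 d, and 18 lower and 2 higher with the guides, beside 20.7%, 23% and 21.1% lower among all genes. Of 25 lysosomal genes 15 were higher and 3 lower at 6 h, 14 and 2 at 8 d, and 17 and 1 with the guides. Of 383 ZNF genes 129 were higher and 57 lower at 6 h, 207 and 35 at 8 d, and 267 and 21 with the guides, while the share of all genes called higher also grew, at 26.8%, 36.9% and 40.9%.

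**Figure D4:**
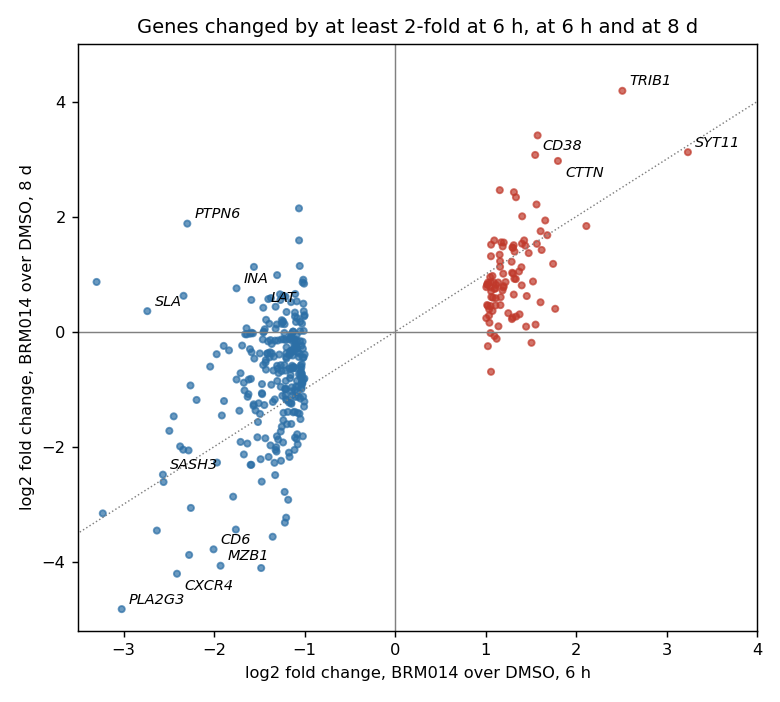
Log2 fold change at 6 h of BRM014 (x axis) and at 8 d (y axis) of the 370 genes that changed at least 2-fold at 6 h; the dotted line marks equal effects. Most points lie in the same quadrant at both times, whereas genes such as PTPN6 (6 h -2.30, 8 d 1.88) lie on the other side of zero.

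In CCRF-CEM, KOPT-K1 and TALL-1 the libraries came from another RNA kit and a strand-specific library kit, and the values from another table, so effects stand side by side and no test was run between lines. At 6 h, 28.9% of 16241 tested genes were higher and 20.9% lower in CCRF-CEM, 22.9% and 15.2% in KOPT-K1, and 26.6% and 19.3% in TALL-1. Across 15069 genes tested in both tables the Jurkat effect had a Pearson r of 0.68 with CCRF-CEM, 0.59 with KOPT-K1 and 0.58 with TALL-1, as a description. Of the 94 genes that rose at least 2-fold in Jurkat 79 were tested there, of which 66 were higher in CCRF-CEM, 56 in KOPT-K1 and 60 in TALL-1, and 46 in all 3 (58.2% of those tested). Of 239 tested genes among the 276 that fell, 191, 165 and 164 were lower in CCRF-CEM, KOPT-K1 and TALL-1, 118 in all 3, while 3, 5 and 8 were higher. SASH3 had log2 fold changes of -2.57 in Jurkat, -2.58 in CCRF-CEM, -2.67 in KOPT-K1 and -2.87 in TALL-1. CXCR4 had -2.41, -2.76, -1.80 and -1.59 in the same order, and BICRAL had 1.47, 1.77, 1.62 and 1.61. CTTN rose in all 4 lines with a wider range, at 1.80, 4.31, 2.65 and 1.39.

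Of the gene lists, TCR-proximal genes (28 tested in these lines) were lower for 21 in CCRF-CEM, 21 in KOPT-K1 and 19 in TALL-1, and higher for 4, 1 and 4. GIMAP genes were lower for 6, 7 and 7 of 7. Glycolytic genes were lower for 13, 9 and 11 of 22, beside 17 in Jurkat, with medians of -0.48, -0.22 and -0.23, beside -0.24. Coactivators were higher for 15, 14 and 10 of 22. Other lists did not keep the Jurkat direction in every line. TAL1 complex genes were lower for 6, 5 and 3 of 12 and higher for 2, 5 and 5. S phase genes were higher for 15, 6 and 2 of 32 and lower for 2, 2 and 9. Mitotic genes were higher for 13, 2 and 4 of 34 and lower for 2, 2 and 4. Interferon-stimulated genes were higher for 2, 13 and 10 of 25 and lower for 9, 4 and 9. The cholesterol list had 2, 1 and 3 of 26 genes higher in the same order of lines, beside 14 higher in Jurkat. That Jurkat count was 5 to 9 when BRM014 replicate 2, DMSO replicate 1 or DMSO replicate 3 was left out. The medians of the list differed less than the counts in CCRF-CEM (0.26) and TALL-1 (0.33), beside 0.35 in Jurkat, while that in KOPT-K1 was -0.03.

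**Figure D5:**
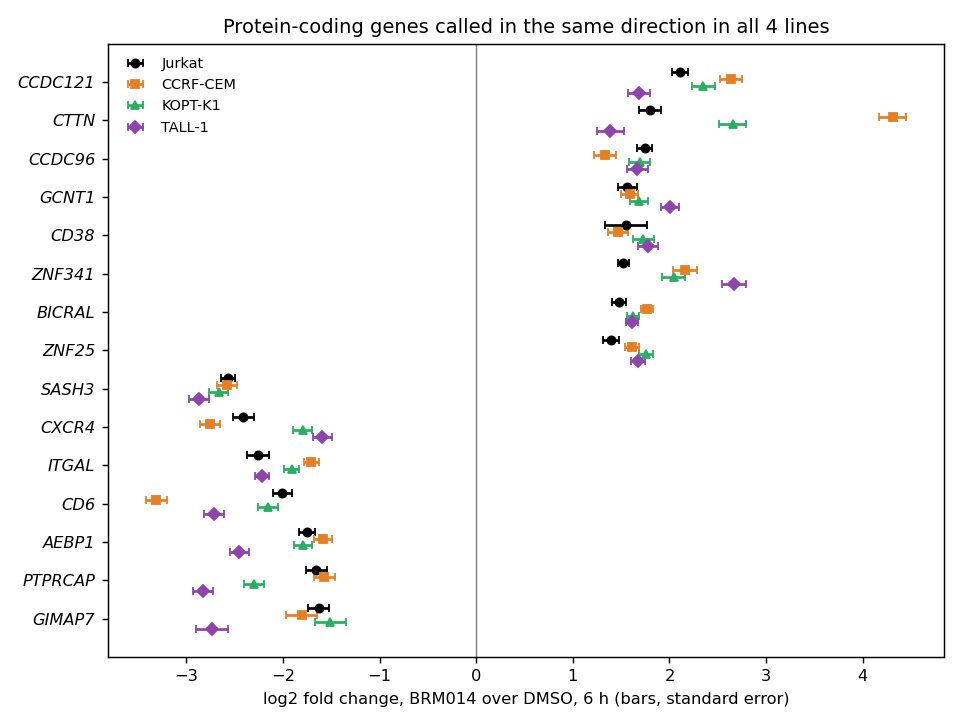
Log2 fold change after 6 h of BRM014 over DMSO of 15 protein-coding genes called in the same direction in Jurkat, CCRF-CEM, KOPT-K1 and TALL-1 (points, with bars for the SE of the limma fit); the other 3 lines come from another library kit and table. The genes were chosen for this sharing: SASH3 and CXCR4 lie below zero, and BICRAL and CTTN above zero, in all 4 lines.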

How the data were processed

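RNA-sequencing libraries of poly(A) RNA from T-ALL lines were analysed from 2 deposited tables of TPM, which the authors made per gene; their notes name HISAT2 2.2.1, featureCounts 2.0.3 and DESeq2 1.38.2 with hg38, per the submitters' processing notes. Per the labels, Jurkat libraries used a NEBNext Ultra II kit without strand information and the other lines its directional version. Each Jurkat column came out as whole reads from TPM and gene length within 0.01, which gave depths and the count alternatives. Genes with at least 1 TPM in 3 or more libraries were tested with limma 3.58.1 in R 4.3.3 on log2(TPM + 1), a scale that understates changes of low genes. All 9 Jurkat groups entered 1 fit (18 residual degrees of freedom), and the other lines entered another (12). Moderated statistics used trend and robust options, and p-values were adjusted by the Benjamini-Hochberg method over all genes tested. A log2 fold change is BRM014 minus DMSO in the fitted mean, a called gene has an adjusted p under 0.05, and 2-fold is 1 on that scale. Scripts were tested on simulated data.

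Genes and lists were chosen with earlier results of these data known. From 52 gene lists and 24 name families, the latter restricted to RefSeq protein-coding genes unless they are RNA families, the rule names up to 4 called members per direction. It adds 12 factor and subunit genes, the 25 largest protein-coding changes per direction at 5 TPM or more without overlap of libraries, the 10 largest gains and losses of TPM, up to 10 genes crossing from under 0.5 to at least 2 TPM or back, and the 10 largest differences from the 8 d and guide effects and changes shared by all 4 lines. Of 578 genes so named, 61 share over 10% of exonic bases with a gene on the other strand. RefSeq annotation and promoters (GRCh38.p14) were matched by symbol or synonym for 35623 of 38557 genes. Same-numbered BRM014 and DMSO libraries deviated together with correlations of 0.17, 0.30 and 0.09, not all over 0.1, so the replicate number was not used as a block. Alternatives were another pseudocount, filters, median-ratio rescaling, limma-voom on recovered reads, a fit of the compared groups only, a replicate block, mitochondrial genes left out, no trend and each replicate left out; leaving out replicate 2 of both 6 h groups was added after the data were seen.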

Additional observations from a re-analysis of the deposited data

Results flagged for a closer look

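The BRM014 effect at 6 h differed from that at 8 d, by the interaction term of the limma fit with Benjamini-Hochberg adjustment, for 3323 genes in the higher and 4606 in the lower direction. The 6 h effect was lower by 4.66 on the log2 scale for EEF1A2 (difference -4.657; 6 h -0.19, 8 d 4.47), a translation elongation factor of neurons and muscle, and its 6 h value did not pass the test. CTHRC1 differed by -4.29 (6 h -0.12, 8 d 4.17), and CRIP2 by -3.146 (6 h 0.04, 8 d 3.19), both without a call at 6 h. EPAS1 (HIF-2 alpha) differed by -4.038, being lower at 6 h (-0.87) and higher at 8 d (3.17).

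The phosphatase PTPN6 differed by -4.174, with -2.30 at 6 h and 1.88 at 8 d. The cytokine signalling inhibitor SOCS1 differed by -3.682, with -0.71 at 6 h and 2.97 at 8 d, and its 6 h call was lost without DMSO replicate 2 (log2 -0.41, adjusted p = 0.096). The T cell adaptor SH2D2A differed by -3.331 (-0.99 and 2.34), and the lactate exporter SLC16A3 by -3.205 (-1.06 and 2.14). All 4 were called lower at 6 h and higher at 8 d.

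In the other direction, FXYD2, a regulator of the sodium pump, differed by 3.269 (6 h -0.50, 8 d -3.77) and its readthrough FXYD6-FXYD2, with which it shares exons, by 2.711 (6 h -0.46, 8 d -3.17), neither with a call at 6 h. TRAT1, a transmembrane adaptor of the TCR, differed by 2.629 (6 h -1.48, 8 d -4.11), and DNTT, the polymerase that adds bases to receptor gene joins, by 2.537 (6 h -0.52, 8 d -3.06), the last with an adjusted p of 0.061 at 6 h. SPP1 (osteopontin) differed by 2.312 (6 h -0.96, 8 d -3.28), and its 6 h call was lost without BRM014 replicate 1, BRM014 replicate 3 or DMSO replicate 2. SLC7A11, the cystine importer, differed by 2.379 (6 h -0.05, 8 d -2.43), MGAT4A by 2.32 (6 h 0.22, 8 d -2.10) and ASS1, of arginine synthesis, by 2.245 (6 h 0.02, 8 d -2.23). None of these last 3 passed the test at 6 h.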

How the results depend on the processing

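Counts of called genes at 6 h stayed within 1.5 times the reported value under every alternative run, except those past 2-fold with a pseudocount of 0.1 (317 higher and 545 lower) and in limma-voom on recovered reads (326 and 638); a smaller pseudocount raises the fold changes of low genes by construction. Leaving out 1 library at a time gave 4096 to 4537 genes higher and 3273 to 3672 lower, 87 to 130 and 247 to 317 past 2-fold, 2955 to 3475 and 4246 to 4951 with a higher and a lower effect at 6 h than at 8 d, and 2439 to 2671 and 4581 to 5331 against the guides. The same gave 4190 to 4563 and 2920 to 3507 in CCRF-CEM, 3025 to 3417 and 2079 to 2231 in KOPT-K1, and 3865 to 3990 and 2732 to 2945 in TALL-1. The replicate block, which the pairing check did not call for although each library correlated best with its own number, gave 5132 higher and 3977 lower, with 95 and 275 past 2-fold. Of the values of named genes and their differences under alternatives, 9005 kept direction and side of the threshold, 440 lost the call, 16 gained it and 14 changed sign. Those 14 were 6 h values of 4 genes without a call: ASS1 (-0.022 after median-ratio rescaling, -0.0048 in limma-voom, -0.033 without both replicate 2 libraries, and -0.51 to 0.50 over single omissions), CRIP2 (-0.030 without both and -0.072 to 0.19), CTHRC1 (-0.37 to 0.13) and SLC7A11 (-0.25 to 0.063). The cause was not tested. Pooled fits assume that groups vary alike. Under 1 TPM 10.6% of genes were called higher and 10.3% lower, against 32.4% and 22.9% at 20 to 100 TPM and 7.89% and 15.8% at 500 TPM or more; the part of depth in this was not tested.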

Other observations

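Solute carriers, the membrane transporters of small molecules, fell more often than they rose, with 80 of 241 lower and 66 higher beside 20.7% and 26.8% of all genes. SLC23A1, an ascorbate transporter, had 5.44, 5.80 and 5.01 TPM with BRM014, against 23.7, 22.9 and 17.4 TPM with DMSO (log2 fold change -1.79, SE 0.12, adjusted p = 1.5e-10). SLC6A6, the taurine transporter, had 7.12, 5.24 and 6.63 TPM with BRM014, against 19.7, 15.4 and 19.3 TPM with DMSO (log2 fold change -1.39, SE 0.10, adjusted p = 3.9e-10). The groups did not overlap for either gene. Tripartite motif genes fell in 18 of 46 cases (39.1%) and rose in 9 (19.6%), with TRIM25 (-0.85) and TRIM56 (-0.79), ubiquitin ligases of antiviral sensing, the lowest.

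Genes of the cilium and of intraflagellar transport rose in 13 of 32 cases (40.6%) and fell in 3 (9.38%), with IFT27 (0.53) and IFT172 (0.43) highest but for none by 2-fold. Among 18 circadian clock genes 5 rose (27.8%, beside 26.8% of all genes) and 7 fell (38.9%, beside 20.7%). CLOCK rose (0.55) and its repressor NR1D2 fell by 0.89. In fatty acid synthesis 5 of 15 genes rose (33.3%) and 4 fell (26.7%), shares near those of all genes, and the desaturase FADS1 had 53.1, 71.1 and 55.0 TPM with BRM014, against 96.7, 124 and 94.3 TPM with DMSO (log2 fold change -0.80, SE 0.14, adjusted p = 5.1e-05). EIF1B, an initiation factor of start site choice, had 131, 130.4 and 133 TPM with BRM014, against 76.5, 69.9 and 77.1 TPM with DMSO, the largest increase of its family (0.81).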
